A study of Sus scrofa with 55 samples.

Results

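The genes described here build and guard the spindle of the oocyte. They are 37 genes of the spindle, the kinetochore and the spindle checkpoint, picked by symbol, and 32 of them had a row in a count table of 25880 genes, of which 14857 carry a symbol. AURKA, AURKC, PTTG1, TACC3 and KNL1 had no row under their symbol and are not analysed here. By role, the measured members fall into checkpoint and anaphase control (9 of 10 listed genes), the kinetochore (8 of 9), the chromosomal passenger complex (4 of 5), spindle assembly (6 of 8), and kinesins with the spindle midzone (5 of 5).

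A growing oocyte is held in prophase of the first meiotic division with its nucleus, the germinal vesicle, intact, and it stores mRNA that is used when meiosis resumes. The spindle of mammalian oocytes then forms without centrioles. Kinetochores tie chromosomes to its microtubules, the passenger complex corrects wrong attachments, and checkpoint proteins at unattached kinetochores hold back the anaphase promoting complex until every chromosome is attached. Errors in these steps give eggs with a wrong chromosome number.

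RNA of the cytoplasm was measured with Smart-seq2, which copies whole transcripts of single cells, in 55 oocytes of wild type pubertal Landrace Yorkshire gilts, young female pigs aged 208 to 210 days. Every gilt had received PMSG (5 IU), a gonadotropin from mares that makes antral follicles grow, and the ovaries were taken at a slaughterhouse 48 h later. The oocytes came from antral follicles graded 1 to 5, the grades being named in the labels without a size, with 11, 12, 11, 11 and 10 oocytes in order of grade (called stages 1 to 5 here). The 4 gilts are the replicates: 14 oocytes came from gilt 201, 9 from gilt 205, 12 from gilt 801, which gave none at stage 5, and 20 from gilt 803.

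Libraries differed in ways that bear on every value below. Total counts ran from 151104 to 38282850 per oocyte, with a median of 12139540, and the 13 mitochondrially encoded protein genes took between 2.1% and 91.8% of them. Levels are therefore given as CPM, the count of a gene scaled to the library's total in the usual way, and as nuclear-encoded CPM, which leaves those 13 genes out of the total. The oocyte label was checked against 12 oocyte and 18 granulosa and cumulus cell markers. In 13 libraries, called granulosa-rich below, the granulosa markers had more counts than the oocyte markers; 12 were of gilt 803 and 1 of gilt 801, and they lay at all 5 stages (3, 1, 3, 4 and 2 of them at stages 1 to 5). There the granulosa markers summed to between 4627 and 20750 nuclear-encoded CPM and the oocyte markers to between 178.5 and 4419, against 109.3 to 11030 and 941.7 to 337900 in the other 42. ZP3, a protein of the egg coat, had counts in every library, with a median of 180.8 CPM in the granulosa-rich ones and 6964 in the others, and AMH, a granulosa hormone, had 0 counts in all 55. Of the other 42, 3 more had more counts of granulosa, theca and blood markers together than of oocyte markers. At stage 1 of gilt 201, oocyte 1 had 12210 nuclear-encoded CPM of theca and stroma markers and 13810 of oocyte markers. At stage 2 of gilt 803, oocyte 3 had 10980 of blood, immune and endothelial markers and 941.7 of oocyte markers, and oocyte 4, the shallowest library, 1566 of theca and stroma and 1953 of oocyte markers.

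The oocytes carried RNA of nearly the whole set. A library held counts for a median of 29 of the 32 members, with a range from 13 to 32. The members together took 86.3 CPM in the lowest oocyte, 779.5 in the median one and 7676 in the highest, or 105.4, 2695 and 7972 nuclear-encoded CPM. CDC20 was the nearest to absent of the 32. CDC20, the activator that switches on the anaphase promoting complex once the checkpoint is satisfied, had 21 counts over all libraries and none in 50 of 55, and a count of 0 allows a level of up to 0.0784 CPM in the deepest library and up to 19.9 CPM in the shallowest. ZWINT, a kinetochore protein, had none in 28 oocytes.

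Transcript levels of different genes can only be compared per length, and a second deposited table gave length-scaled values for 28 of the members. Within an oocyte, SPC24, a subunit of the NDC80 complex that grips microtubules, made up a median of 36.8% of the sum of these 28 and ranked first in 46 of 55 oocytes. NUSAP1, which bundles spindle microtubules near chromatin, followed with 6.99%, and PLK1, a kinase of spindle and kinetochore assembly, with 4.99%. BIRC5, the passenger subunit also called survivin, had 4.59%, BUB3, a checkpoint adaptor, 4.38%, PRC1, the crosslinker of midzone microtubules, 4.13%, and AURKB, the passenger kinase, 3.03%. At the low end lay ZWINT with a median of 0%, CENPF with 0.100% and CKAP5, a microtubule polymerase, with 0.121%. SPC24 led by length-scaled value but not by counts, and transcript lengths were not examined. By counts it made up a median of 9.80% and NUSAP1 11.7%, and the counts behind 1 unit of the length-scaled value were the fewest for SPC24 of all 28, 0.158 of the members' median, against 0.972 for NUSAP1 and 8.54 for CKAP5. A gene model shorter than the true transcript would raise the value of SPC24, and the annotation was not examined.

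**Figure D1:**
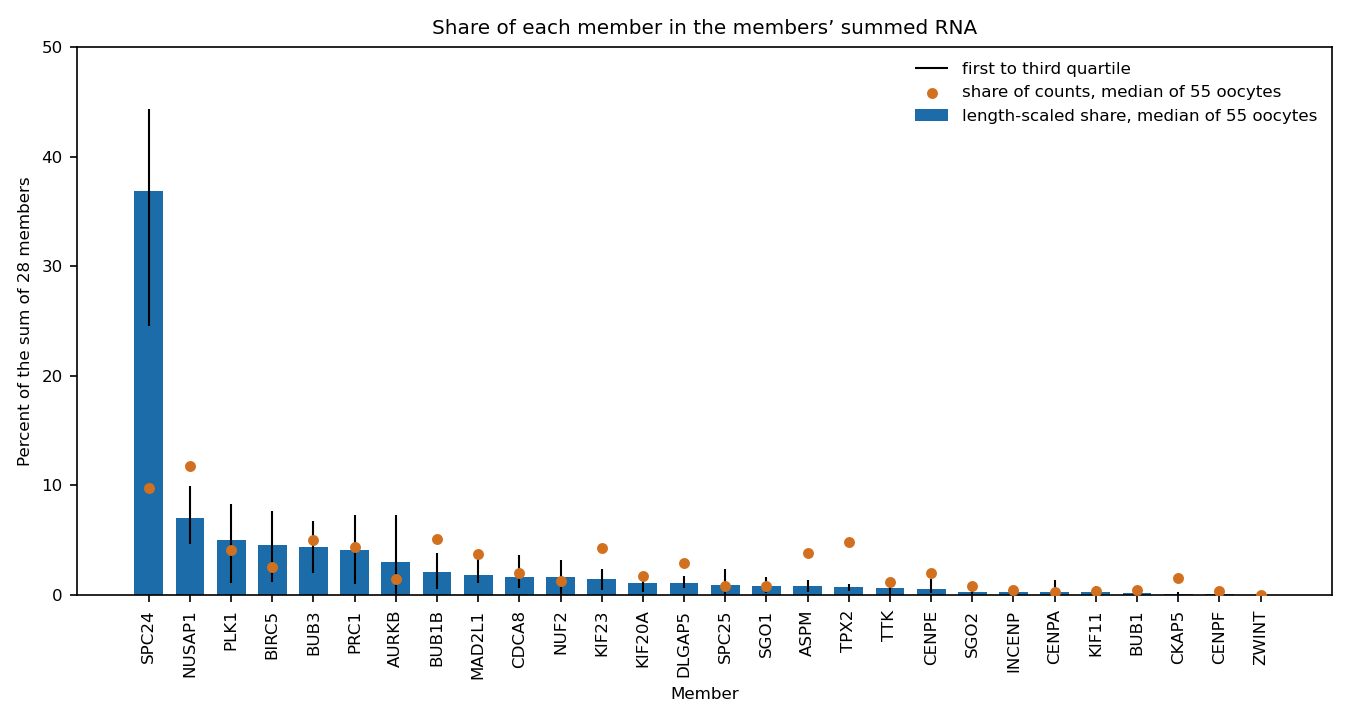
Share of each of 28 members (x axis) in the members' summed RNA, in percent (y axis); bars are medians of length-scaled shares over 55 oocytes, black lines run from the first to the third quartile, and orange points are medians of the share of counts. SPC24 takes 36.8% by length-scaled value and 9.80% by counts.

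Within gene families and complexes, some pairs kept 1 order of length-scaled values in nearly all oocytes and others did not. BUB1B, the checkpoint protein BubR1, exceeded its relative BUB1 in 48 of 55 oocytes, 39 of the 42 other libraries and 9 of the 13 granulosa-rich ones. SGO1 exceeded SGO2, the shugoshin that guards centromere cohesion in meiosis of mouse oocytes, in 38 of 55, while SGO2 was higher in 16. SPC24 exceeded its partner SPC25 in 52 oocytes, and NUSAP1 exceeded TPX2, the factor that nucleates microtubules around chromosomes, in all 55. The counts behind 1 unit of the length-scaled value were 4.03 of the members' median for TPX2 and 0.972 for NUSAP1. By plain CPM TPX2 was higher in some oocytes, such as oocyte 3 of gilt 201 at stage 1, with 20.7 against 10.8. AURKB and CDCA8, 2 subunits of 1 complex, had no such order, with AURKB higher in 29 and CDCA8 in 25, and against BIRC5, another subunit, AURKB was higher in 21 and lower in 32. Of the Aurora kinases AURKB alone had a row, so its relation to AURKC, the germ cell form, is not analysed here.

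Levels by follicle stage overlapped throughout. Taken as gilt means, the members' sum over stages 1 to 5 was 3013 ± 1860, 3762 ± 1269, 2856 ± 794, 3590 ± 1769 and 2941 ± 1099 nuclear-encoded CPM (SD, n = 4 gilts, 3 for stage 5). In plain CPM, stage 1 had 1915 ± 1648 and stage 5 1131 ± 793, and the lowest mean was 1084 at stage 3. On both scales the SD at stage 1 was wider than the distance between the lowest and highest stage means, and the ranges of the gilts overlapped between stages. Single oocytes of stage 4 had the highest median, 4280 nuclear-encoded CPM with a range from 753.9 to 7645, and those of stage 1 the lowest, 1900 with a range from 105.4 to 6342.

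The 5 roles had their highest means at different stages. Checkpoint and anaphase control genes summed to 616 ± 357 nuclear-encoded CPM at stage 1 and 624.5 ± 325.3 at stage 5, with the highest mean, 966 ± 349, at stage 2. Kinetochore genes stood at 673 ± 497 and 614 ± 169 at stages 1 and 5 and were highest at stage 3, with 742 ± 604. Passenger genes stood at 315 ± 181 and 311 ± 174 and spindle assembly genes at 930 ± 566 and 849 ± 406, both highest at stage 2 with 405 ± 143 and 1092 ± 585. Kinesins with the midzone stood at 480 ± 305 and 543 ± 321 and were highest at stage 4, with 621 ± 323. For each role, the difference between stages 5 and 1 was smaller than either SD.

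**Figure D2:**
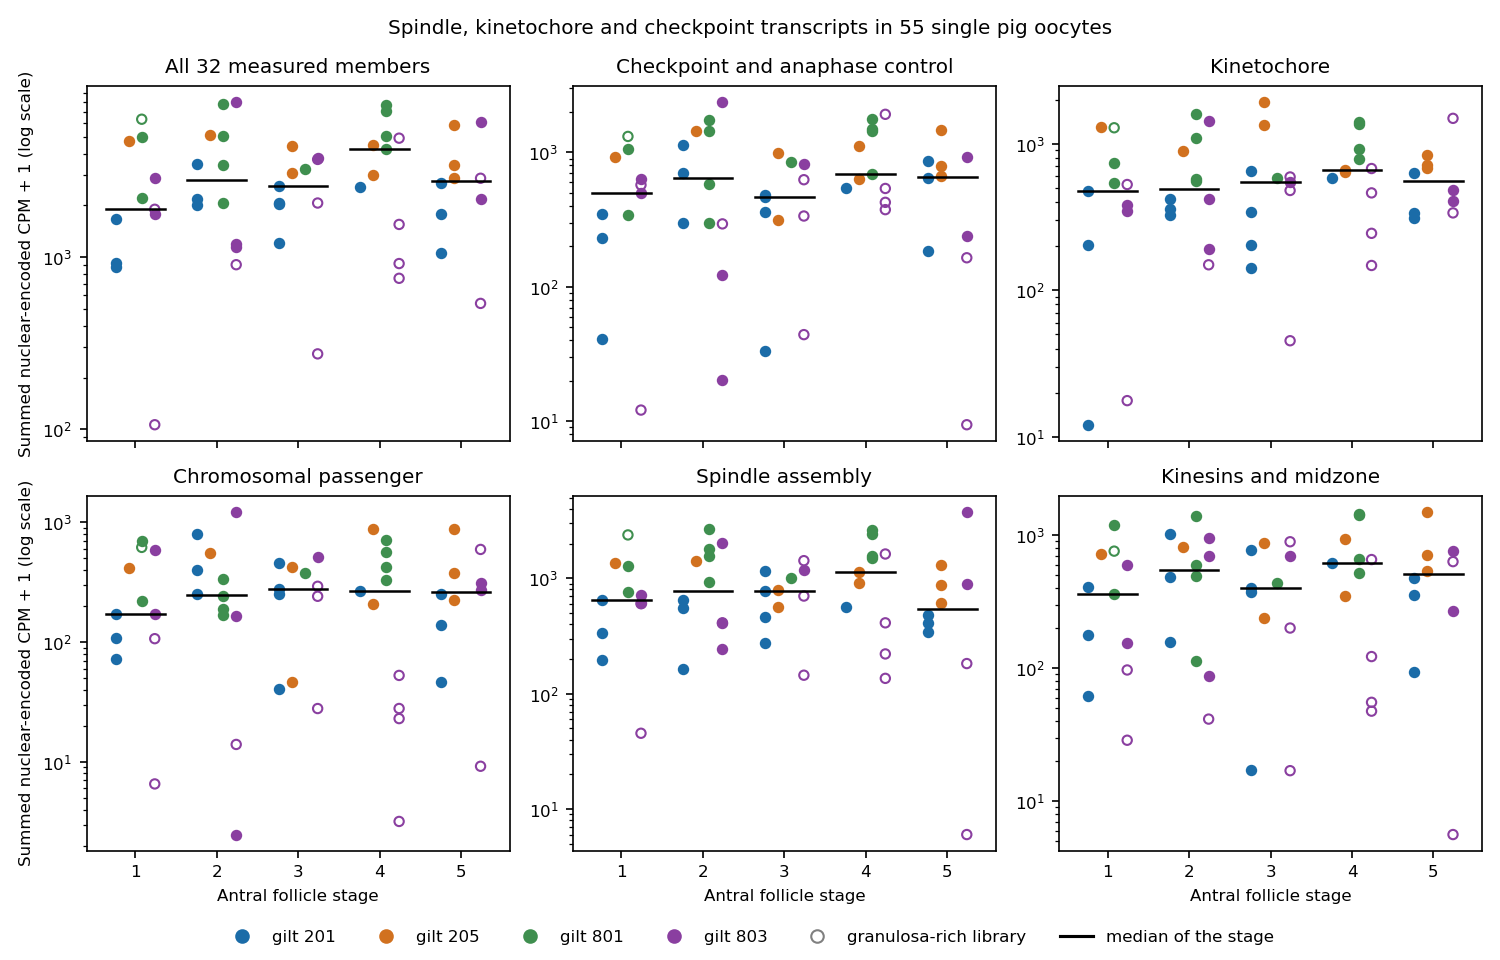
Summed nuclear-encoded CPM + 1 (y axis, log scale) of all 32 measured members and of each role in 55 oocytes, by antral follicle stage (x axis); colours mark the gilt, open circles granulosa-rich libraries, black lines the median of the stage. The stages overlap in every panel, and the lowest point of gilt 803 is an open circle in every panel except that of the passenger genes.

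No member passed the test for a change over the stages. The counts of oocytes from 1 gilt and 1 stage were added up, and these sums were fitted with edgeR's quasi-likelihood test, with gilt in the model and Benjamini-Hochberg adjustment over 15637 genes, of which 31 were members (CDC20 had too few counts). For stage 5 against stage 1, 0 of 31 members were called, as were 0% of all genes, and no member had an unadjusted p under 0.05 against 840 of all genes. The F test across the 5 stages called 0 members and 0% of all genes, and the trend over the stages 0 members and 0.0128% of all genes; neither had a member with an unadjusted p under 0.05. The members' standard errors for stage 5 against stage 1 had a median of 0.96 on the log2 scale.

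The fitted changes of stage 5 against stage 1 leaned upward without any passing. They were positive for 24 of 31 members, with a median log2 change of 0.68, while 42.7% of all genes tested were positive and their median was -0.27. By role, 7 of 8 checkpoint genes were positive with a median of 0.73, 5 of 8 kinetochore genes with 0.50, 2 of 4 passenger genes with -0.04, 6 of 6 spindle assembly genes with 1.05, and 4 of 5 kinesin and midzone genes with 0.69. The slope per stage was positive for 22 members, among them 6 of 6 spindle assembly genes and 0 of 4 passenger genes. These fits use TMM scaling, whose factors ran from 0.27 to 3.59 over the 19 sums. In a limma fit with every oocyte weighted equally in mean CPM, which has no such scaling, the members' median was -0.21 and that of all genes -0.60. With the mitochondrially encoded genes left out of that CPM they were 0.27, with 20 of 31 positive, and -0.22. Leaving out gilt 803 lowered the members' median to 0.24, and leaving out gilt 205 raised it to 1.03. In the same comparison the median was -1.35 over 17 granulosa and cumulus markers, -4.01 over 11 of theca and stroma and -5.58 over 12 of blood, immune and endothelial cells. It was -0.83 over 12 oocyte markers and -0.77 over the 13 mitochondrially encoded genes. None of these lists had a call, and their part in the members' values was not tested. Without the granulosa-rich libraries the members' median was 0.68 and that of all genes -0.17. Without all 16 libraries richer in somatic than oocyte markers it was 0.46, with 22 of 31 positive, against 0.09 for all genes.

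**Figure D3:**
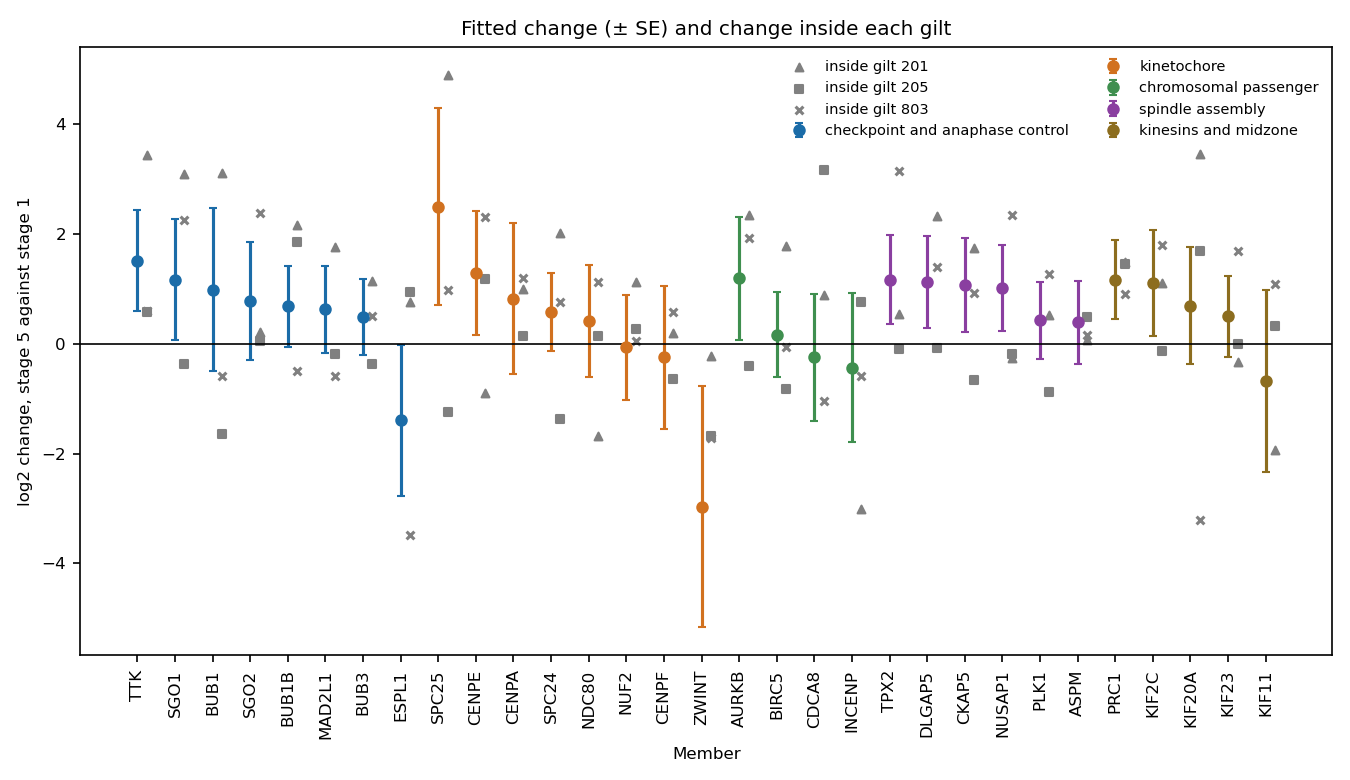
Log2 change of stage 5 against stage 1 (y axis) for 31 members (x axis); coloured points with bars are fitted changes ± SE by role, grey marks the change of log2(TMM-scaled CPM + 1) inside the 3 gilts with both stages. Most fitted changes lie above 0, no member passed the test, and the 3 gilts disagree in sign for most members.

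Inside a gilt, the direction varied from animal to animal. On log2(TMM-scaled CPM + 1), stage 5 exceeded stage 1 for 24 of 31 members in gilt 201, with a median difference of 1.11, for 15 in gilt 205, with a median of -0.07, and for 22 in gilt 803, with a median of 0.92. Of all genes, 39.6%, 39.9% and 46% were positive in these gilts, with medians of -0.10, -0.16 and 0. The SD of the 3 medians was 0.63. Of the members, 6 were higher at stage 5 in all 3 gilts, namely TTK, SGO2, NUF2, CENPA, ASPM and PRC1, and ZWINT alone was lower in all 3; 8.17% of all genes were higher and 15.9% lower in all 3.

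Among the checkpoint genes, TTK had the smallest p for stage 5 against stage 1. TTK, the kinase Mps1 that starts the checkpoint signal, stood at 2.20, 16.1, 12.5 and 10.5 TMM-scaled CPM at stage 1 in gilts 201, 205, 801 and 803, and at 33.8, 24.8 and 16.4 at stage 5 in gilts 201, 205 and 803. On the TMM-scaled sums every stage 5 value lay above every stage 1 value. The margin was narrow, between the highest at stage 1 (gilt 205) and the lowest at stage 5 (gilt 803). Groups apart in this way were found for 2 of 31 members, TTK and PRC1, and for 1.7% of all genes tested. On the same sums, 0 members and 4.46% of all genes had every stage 5 value below every stage 1 value. Gilt 205 at stage 1 was 1 oocyte, and its sum had the largest TMM factor, 3.59. The gilt means of nuclear-encoded CPM of TTK overlapped. That oocyte had 70.7, and the 4 oocytes of gilt 803 at stage 5 had 0.210, 0.135, 30.2 and 78.4. The fitted log2 change of TTK was 1.52 ± 0.93 (SE), with an edgeR adjusted p of 0.933, and it ran from 0.83 without gilt 201 to 2.01 without gilt 803.

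BUB1B had overlapping stages. Its stage means were 41.9 ± 26.8, 76.0 ± 26.7, 42.0 ± 24.4, 78.4 ± 48.1 and 68.2 ± 42.1 TMM-scaled CPM, and its fitted change was 0.68 ± 0.75. BUB1, which recruits other checkpoint proteins to the kinetochore, had 11.9 ± 8.6 at stage 1 and 12.8 ± 13.3 at stage 5, with its highest mean, 27.3 ± 21.6, at stage 4. The highest gilt there was 803, with 55.8. In that gilt oocyte 2, a granulosa-rich library, had 724.2 CPM of BUB1, and the others 0, 2.73 and 0.405. BUB3 stayed between 54.9 ± 17.0 at stage 3 and 85.2 ± 50.9 at stage 2. The shugoshins were as variable, SGO1 with 13.7 ± 14.2 at stage 1 and 18.6 ± 7.8 at stage 5, SGO2 with 13.7 ± 8.8 and 21.4 ± 15.5. ESPL1, separase, the protease that cuts cohesin at anaphase, had a fitted change of -1.39 ± 1.38, the only negative one among the 8 checkpoint and anaphase genes tested.

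In the kinetochore, SPC24 and its partner SPC25 had unlike spreads. SPC24 stood at 31.3, 200.2, 61.6 and 52.7 TMM-scaled CPM at stage 1 in gilts 201, 205, 801 and 803, and at 130.5, 76.5 and 89.9 at stage 5 in gilts 201, 205 and 803. The groups overlapped, since gilt 205 held the highest value at stage 1. SPC25 stood at 0.330, 11.5, 6.10 and 7.20 at stage 1 and at 38.9, 4.30 and 15.2 at stage 5, again overlapping. On log2(TMM-scaled CPM + 1), gilt 201 moved farthest in both genes. The fitted log2 change of SPC25 was 2.50 ± 1.80, with an edgeR adjusted p of 0.962, and it was 0.39 without gilt 201 and 4.37 without gilt 205. CENPE, the kinesin that moves chromosomes to the spindle equator, went from 19.2 ± 4.5 at stage 1 to 97.5 ± 169.8 at stage 3 and 55.2 ± 51.7 at stage 5. ZWINT was low at every stage, with 6.96 ± 7.65 at stage 1 and 0.537 ± 0.472 at stage 5, and its fitted change of -2.97 ± 2.19 did not pass.

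For the passenger complex, AURKB was the member with the smallest p. It stood at 4.02, 23.3, 50.2 and 17.4 TMM-scaled CPM at stage 1 in gilts 201, 205, 801 and 803, and at 24.6, 17.4 and 68.6 at stage 5 in gilts 201, 205 and 803. The groups overlapped, and the fitted change of 1.19 ± 1.12 had an edgeR adjusted p of 0.995. Without gilt 803 it was 0.13. In single oocytes AURKB ran from 0, in 9 of 55, through a median of 11.7 to 901.1 CPM in 1 oocyte of gilt 803 at stage 2. BIRC5 had 36.2 ± 24.3 at stage 1 and 29.9 ± 9.5 at stage 5. CDCA8, borealin, and INCENP, the scaffold of the complex, had fitted changes of -0.24 ± 1.16 and -0.43 ± 1.35.

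Spindle assembly genes had 6 positive changes of 6, the largest for TPX2. TPX2 stood at 23.9, 45.6, 106.8 and 18.7 TMM-scaled CPM at stage 1 in gilts 201, 205, 801 and 803, and at 35.3, 42.6 and 174.8 at stage 5 in gilts 201, 205 and 803. Gilt 803 alone moved far, and its stage 5 value came mostly from 1 of 4 oocytes. Oocyte 4 had 570.1 CPM of TPX2, and the others 0.917, 2.47 and 39.9. Without gilt 803 the fitted change of 1.17 ± 0.81 (edgeR adjusted p = 0.957) became -0.02. It was 0.75 without the 16 libraries richer in somatic than oocyte markers. NUSAP1 repeated this, with 35.7, 84.99, 160.5 and 81.0 at stage 1 and 29.8, 74.7 and 414.6 at stage 5. The same oocyte of gilt 803 had 1310 CPM of NUSAP1, and the others 96.2, 1.18 and 100.1. DLGAP5, the spindle protein HURP, had a fitted change of 1.13 ± 0.84, CKAP5 one of 1.07 ± 0.85, PLK1 0.43 ± 0.71 and ASPM, which acts at spindle poles, 0.39 ± 0.76.

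Of the kinesins and midzone genes, PRC1 kept its direction in each gilt on the TMM-scaled sums. It stood at 23.99, 45.1, 68.7 and 36.7 TMM-scaled CPM at stage 1 in gilts 201, 205, 801 and 803, and at 69.6, 125.7 and 70.1 at stage 5 in gilts 201, 205 and 803. Every stage 5 value lay above every stage 1 value, with gilt 201 at stage 5 just over gilt 801 at stage 1. The gilt means of nuclear-encoded CPM overlapped. Gilt 205 at stage 1 was 1 oocyte with 197.5, and the 4 oocytes of gilt 803 at stage 5 had 0.105, 0, 52.1 and 343.8. In plain CPM the gilt 205 oocyte had 161.5. The 3 of gilt 205 at stage 5 had 9.35, 45.8 and 325.2, or 63.5, 345.3 and 755.4 nuclear-encoded CPM. The fitted change of 1.17 ± 0.72 had an edgeR adjusted p of 0.933 and ran from 1.04 to 1.26 when single gilts were left out. It was 0.66 without the 16 libraries richer in somatic than oocyte markers. KIF23, a motor of the midzone, had 43.9 ± 28.6 at stage 1 and 42.6 ± 18.2 at stage 5. KIF2C, which frees wrongly attached microtubules, had a fitted change of 1.10 ± 0.96, KIF20A, a motor that brings the passenger complex to the midzone, 0.69 ± 1.06, and KIF11, which pushes spindle poles apart, -0.68 ± 1.65.

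By gilt, the median oocyte had 2024 nuclear-encoded CPM of the members in gilt 201, 4417 in gilt 205, 5025 in gilt 801 and 1836 in gilt 803. In the F test among gilts, 0 of 31 members were called by edgeR and 2.17% of all genes; 4 members, NDC80, NUF2, PLK1 and DLGAP5, had an unadjusted p under 0.05, the smallest of 0.0300 (adjusted p = 0.319) for PLK1. These 4 are 12.9% of the members, beside 12.6% of all genes. Without the granulosa-rich libraries 0 members and 0.0952% of all genes were called. PLK1 averaged 30.9 ± 14.6 TMM-scaled CPM over the 5 stages of gilt 201, 53.96 ± 14.9 in gilt 205, 88.0 ± 32.8 over the 4 stages of gilt 801 and 30.8 ± 16.8 in gilt 803. NDC80, the microtubule-binding subunit of its complex, averaged 7.35 ± 6.398, 29.3 ± 9.1, 37.02 ± 7.7 and 16.0 ± 16.1. NDC80 in gilt 201 reached at most 15.8 at any stage, and the lowest values of gilts 205 and 801 were 18.8 and 29.5. NDC80 was picked by its unadjusted p in this test. The share of all genes apart in this way was not counted, so the gap is a description. DLGAP5 was also highest in gilt 801, with 60.4 ± 29.0, and stood at 22.2 ± 12.7 in gilt 201 and 20.8 ± 19.4 in gilt 803.

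How many members were called among gilts depended on the fit. With limma on mean CPM, every oocyte weighted equally, 17 of 31 members were called, 54.8% against 22.8% of all genes tested, but with the mitochondrially encoded genes left out of the same CPM only NDC80 and DLGAP5 were, 6.45% against 4.24% of all genes. On the length-scaled table BIRC5, DLGAP5 and BUB1B were called, 11.1% of 27 members against 5.87% of all genes. The column sums of that table differ between oocytes and were not rescaled for this fit, which limits comparison among gilts. The mitochondrial share differed among gilts, with 6 of the 13 genes called by edgeR.

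Gilt 803 held most of the granulosa-rich libraries, and the members' fitted changes there were mostly negative. Against the mean of the other gilts, a comparison made because gilt 803 was known to stand apart, edgeR called 0 of 31 members and 4.68% of all genes. The members' changes were negative in 28 of 31, with a median of -0.69 against 0.11 for all genes. By stage, on log2(TMM-scaled CPM + 1), the members' median in gilt 803 minus the other gilts was -0.20, -1.26, -0.95, -1.07 and 0.52 at stages 1 to 5, so stage 5 went the other way. NUF2, which pairs with NDC80, had -1.77 ± 0.66 (adjusted p = 0.142), PRC1 -1.41 ± 0.55 (0.163) and BIRC5 -1.24 ± 0.56 (0.238). DESeq2 on the same sums called these 3, with changes of -1.77, -1.42 and -1.25 and adjusted p of 0.00365, 0.0198 and 0.0385, so these calls depended on the tool. DESeq2 called 9.68% of the members and 15.9% of all genes. In the edgeR fit 7 of 17 granulosa markers were called higher with a median of 3.13, and 5 of 12 oocyte markers lower with a median of -1.53. These 2 lists define the granulosa-rich libraries, so the marker calls are not separate from that definition. Without the 13 granulosa-rich libraries the members' median was -0.03 with 15 of 31 positive, against -0.16 for all genes, and 0 members were called by edgeR.

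Granulosa-rich libraries gave a smaller share of their RNA to most members. A lower level per oocyte and added RNA of other cells cannot be told apart in such shares. The members' sum had a median of 1551 nuclear-encoded CPM in the 13 granulosa-rich libraries and 2944 in the other 42, and inside gilt 803 it was 1235 in 12 and 2544 in 8. Medians were lower in the granulosa-rich libraries for 27 of the 29 members with both medians above 0, and the median ratio was 7.22, against 65.05% of 6484 genes and a median ratio of 2.06. These kinds of library were defined by marker counts, so the ratios are descriptions and were not tested.

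The members split by how far they dropped. PLK1 had a median of 134.3 nuclear-encoded CPM in the other libraries and 4.06 in the granulosa-rich ones, a ratio of 33.1, and 122.0 and 3.59 inside gilt 803. CDCA8 had a ratio of 21.1, KIF2C 17.1 and PRC1 16.4. Separase gave no ratio, with 34.8 in the other libraries and a median of 0 in the granulosa-rich ones, where 8 of 13 had no count. At the other end, BUB3 had 133.6 and 148.7, KIF11 9.93 and 16.6, CKAP5 43.6 and 35.5, SPC24 267.6 and 180.3, and MAD2L1, the checkpoint protein Mad2, 114.0 and 69.8. The roles did not sort them: each role except the passenger complex had members with ratios under 3 and over 8.

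**Figure D4:**
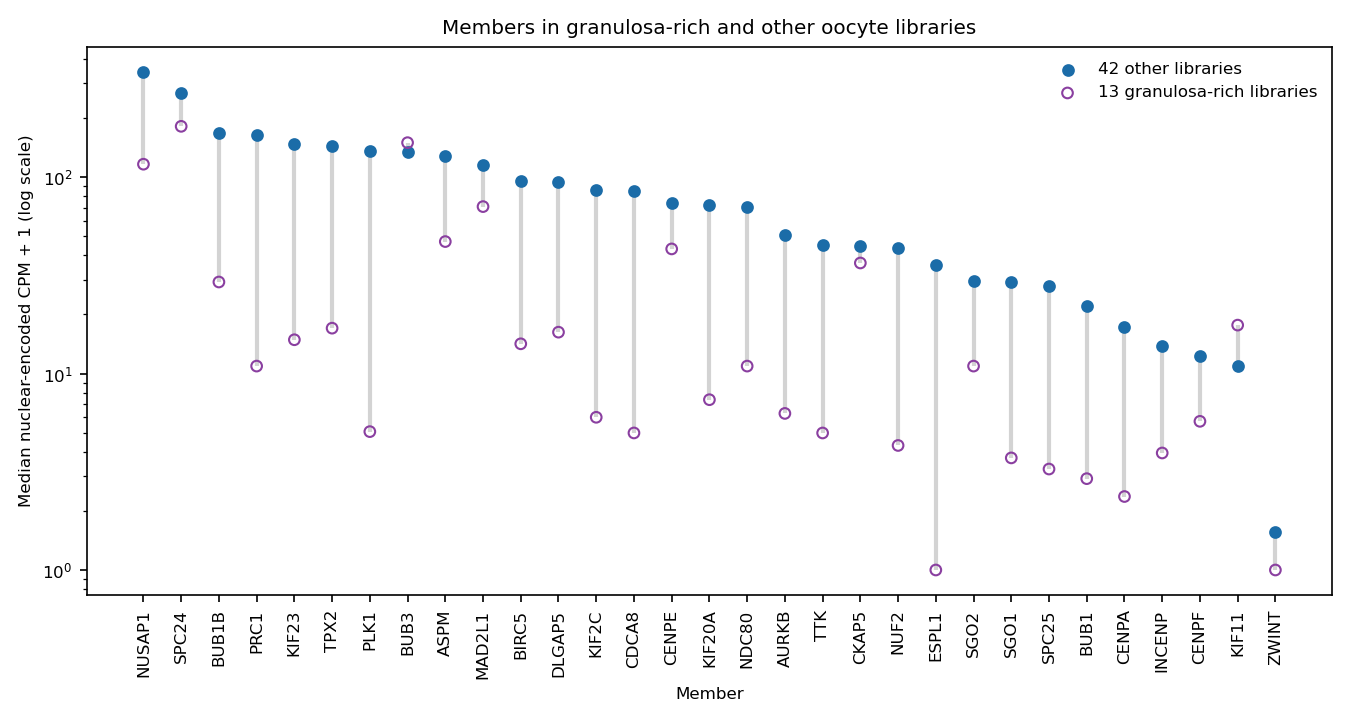
Median nuclear-encoded CPM + 1 (y axis, log scale) of 31 members (x axis) in 42 other libraries (filled) and 13 granulosa-rich libraries (open), ordered by the level in the other libraries. The medians of PLK1, PRC1, CDCA8 and ESPL1 lie far apart, while BUB3, CKAP5, SPC24 and KIF11 lie close together.

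Most of the spread lay between oocytes of the same gilt and stage. On log2(nuclear-encoded CPM + 1), over 29 members with a mean of at least 10 CPM, a median of 63.8% of the variance over 55 oocytes was within a gilt and stage, close to the 65.3% of 7042 genes at that level. Differences between gilts took a median of 19.2%, against 11.3% for all these genes, and differences between stages 6.71% against 6.97%. These shares are each computed alone, so those of gilt and stage can overlap. They are not adjusted for the number of groups. Values unrelated to gilt and stage would also leave most of the variance within the 19 groups of gilt and stage. Such values would give gilt and stage shares above 0 as well, so the shares are descriptions. NDC80 had the largest gilt share, 45.9%, then DLGAP5 with 38.2% and CDCA8 with 34.6%, and SGO2 the smallest, 4.06%. CKAP5 had the largest stage share, 14.6%, and PLK1 the smallest, 0.731%.

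**Figure D5:**
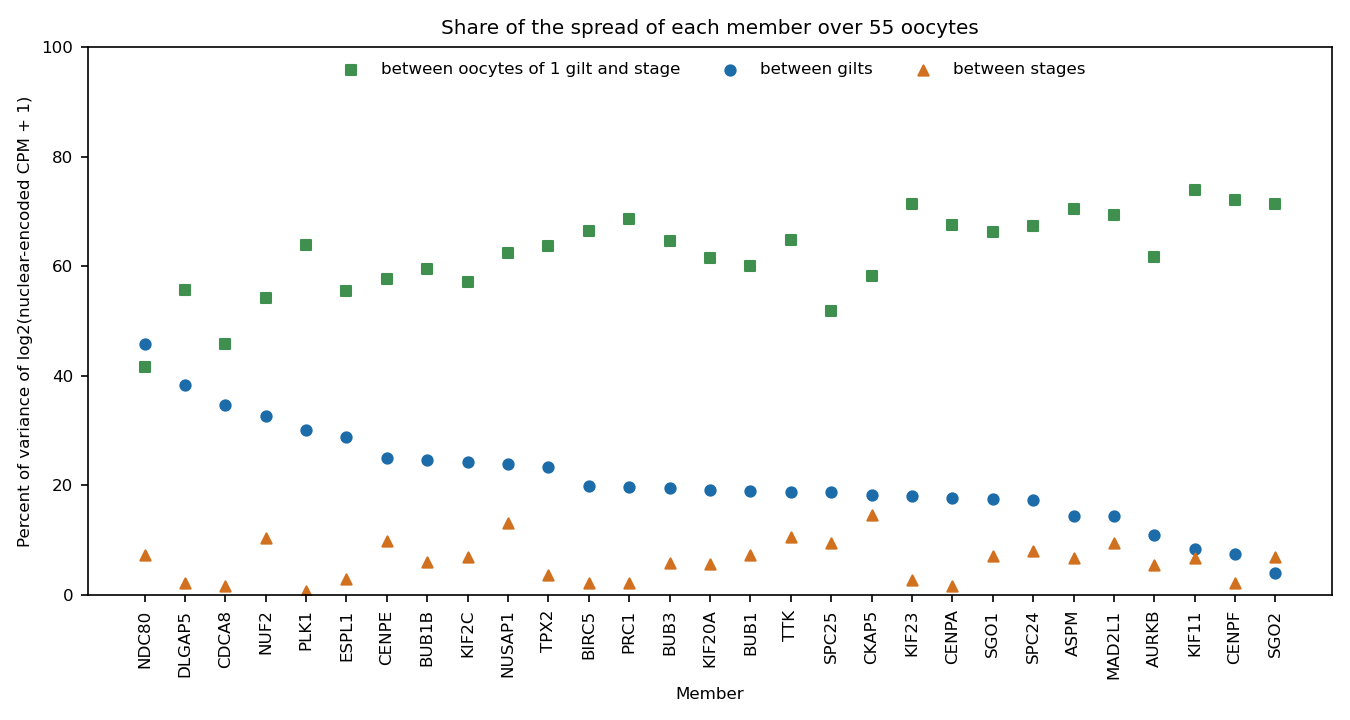
Percent of the variance of log2(nuclear-encoded CPM + 1) over 55 oocytes (y axis) for 29 members (x axis) that lies between oocytes of 1 gilt and stage (squares), between gilts (circles) and between stages (triangles), ordered by the gilt share. Squares are highest for every member but NDC80, and triangles lie under 15%.

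The members' levels varied together from oocyte to oocyte. Across 55 oocytes the median Pearson r over 465 pairs of members was 0.43, against 0.24 for pairs among the 7042 genes; libraries share depth and makeup, and r is given as a description. It was 0.38 in the 42 other libraries and 0.45 in the 13 granulosa-rich ones. Against the summed level of the other members, BUB1B and SGO1 had the highest r, 0.687 each, and KIF11 the lowest, 0.238. The members' sum had r of 0.73 with the summed proliferation markers, among them TOP2A and CDK1, 0.40 with the oocyte markers, -0.42 with the granulosa markers and 0.35 with the log10 total. The median gene had 0.29, 0.07, -0.04 and 0.23 with the same quantities. In the 42 other libraries the members' values were 0.71, 0.11, -0.26 and 0.31. The proliferation markers did not all go 1 way. Median CPM in granulosa-rich and other libraries was 13.9 and 5.38 for TOP2A and 163.9 and 24.6 for MCM5. For CDK1 it was 15.3 and 39.7, and for CCNB2 9.07 and 31.2. Which cells the RNA of these markers came from was not tested. Of 5 libraries with under 10% mitochondrial counts that were not granulosa-rich, all but 1 held the highest sums. Their median was 7645 nuclear-encoded CPM with a range from 1199 to 7972. The 37 with a higher share had a median of 2873 and a range from 875.2 to 6109. The value of 1199 was that of the shallowest library, oocyte 4 of gilt 803 at stage 2. Of the 5, 3 came from gilt 801 and 2 from gilt 803, at stages 2 and 4.

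Other genes of the pathway gave 0 calls for stage 5 against stage 1 in each of 5 lists. Of the anaphase promoting complex, 10 of 16 tested genes were positive with a median log2 change of 0.13, of the constitutive centromere and MIS12 complex 9 of 19 with -0.13, and of the corona, SKA and checkpoint partners 6 of 15 with -0.26. Of microtubule nucleation and augmin genes 7 of 18 were positive with -0.50, and of other mitotic kinesins 10 of 16 with 0.14. An unadjusted p under 0.05 was reached by 5 of the 84 genes tested in these lists, 5.95% beside 5.37% of all genes: ANAPC7 and CDC23, subunits of the anaphase promoting complex, HJURP, the chaperone of CENPA, HMMR, a spindle protein, and KIF18A, which dampens chromosome oscillations, all with positive changes and edgeR adjusted p of at least 0.904. Proliferation markers were positive in 7 of 15, with a median of -0.10. The medians of these 5 lists lay between -0.50 and 0.14, and those of the members' 5 roles between -0.04 and 1.05; the difference between the lists was not tested.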

How the data were processed

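The authors deposited raw counts per Ensembl gene for 55 oocytes, 1 oocyte a column, and these counts carry all tests; 0 columns lacked a sample. The authors also deposited a table of length-scaled values named for TPM, whose column sums differ between oocytes, so that values of this other scale were compared only as shares within an oocyte, apart from 1 alternative fit; its last line ends early. Per the submitters' processing notes, the tools include HISAT2 2.1.0, StringTie 1.2.2, Trim Galore 0.4.3 and featureCounts. For the build, the annotation and the use of strand in counting, nothing is given in the sources used here.

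Groups follow the labels' stage and gilt. Counts were summed per gilt and stage into 19 sums and fitted in R 4.3.3 with edgeR 4.0.16 (TMM, filterByExpr, gilt and stage as terms, glmQLFTest, Benjamini-Hochberg, adjusted p under 0.05), since oocytes of 1 gilt are not separate animals. The fit had 11 residual degrees of freedom. DESeq2 1.42.0, limma 3.58.1 on log2(CPM + 1), other scalings and filters, the fit without gilt, and leaving out a gilt or the granulosa-rich libraries were alternatives; the limma setting without mitochondrially encoded genes, the fit without the 16 libraries richer in somatic than oocyte markers and the comparison of gilt 803 were chosen after seeing the data. Replicate numbers in the labels run within a gilt and pair no samples. A limit for 0 is 3 counts and covers counting error only. The edgeR script was tested on simulated data.

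The members and all gene lists were chosen with earlier results of these data known. Values per gilt or stage are given for members called in a fit, the 2 members of each role with the highest mean CPM, the member of each role with the smallest p for stage 5 against stage 1, the Aurora, BUB1 and shugoshin families, and TTK, TPX2, PRC1 and SPC25. Further members were named after their values were seen.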

Additional observations from a re-analysis of the deposited data

Results flagged for a closer look

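Of 102 groups of gilts or oocytes examined, 6 held a sample far from the others by Dixon's criterion, and chance alone sets apart about 1 in 20. All values are TMM-scaled CPM of 4 gilts. BIRC5 at stage 3 stood at 57.5 in gilt 801 and between 19.3 and 25.6 in the others. CENPE at stage 3 stood at 352.2 in gilt 205, against 6.99 to 16.8, and at stage 1 it was low in gilt 201, with 12.5 against 21.1 to 21.9. NUF2 at stage 1 stood at 77.4 in gilt 801 and between 4.17 and 11.3 elsewhere. In gilt 201 at stage 3, NUSAP1 reached 241.0 against 117.1 to 133.1, and SGO1 36.6 against 8.29 to 11.01.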

How the results depend on the processing

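No member was called for stage 5 against stage 1 under any setting run. Without the replicate block of gilt, the members' median for that comparison was 0.37 with 0 called. Leaving out single gilts gave medians from 0.24 to 1.03 there, and from -0.97 to -0.56 for gilt 803 against the others. With oocytes weighted equally in mean CPM (limma), the medians were -0.21 and 0.36, against -0.60 and 0.80 for all genes; with mitochondrially encoded genes left out of that CPM they were 0.27 and -0.66. TPX2 ran from -0.0243 without gilt 803 to 1.79. Members called in the F test among gilts numbered 17 in that limma fit, 2 with mitochondrially encoded genes left out of it and 3 on the length-scaled table. For gilt 803, DESeq2 called 3 members (9.68%, beside 15.9% of all genes) and limma without mitochondrially encoded genes 1, NUF2 (adjusted p = 0.036; 3.23% beside 4.97%). These settings differ in more than 1 respect, and the cause of the differences was not tested. With 4 gilts and a median SE of 0.96, moderate changes were not detectable.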
